A study of Mus musculus with 4 samples.

Results

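Cell division was read here from 40 genes, chosen by name and found in all 4 single-cell libraries among 32285 genes. The list holds 23 genes of the G2 and M phases (mitosis) and 17 genes of the S phase (DNA replication). The groups were testicular organoids (TOs) and testes, with 2 libraries each. TOs are small aggregates rebuilt from the dissociated testis cells of ICR mouse pups and cultured at the air-liquid interface, so their cells are those that survive dissociation and culture. By the study's design text and methods, TOs were taken at day 28 of culture and testes came from mice 28 days old. The donor pups of the TOs were neonatal at the start of culture, so the groups were not matched in age since birth. The extraction protocol in the labels names day 21 TOs, and this difference is unresolved. No strain is named in the labels, no cells were sorted, no allele distinguishes the groups, and the number of animals or TOs behind a library is not given. By the study's methods the TO medium held added testosterone and follicle-stimulating hormone. P-values measure only the spread between the 2 libraries of a group. The question was which somatic and germ cells carried division transcripts, and in how many cells, in TOs and in testes.

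A dividing cell first copies its DNA. The MCM2-7 helicase, loaded by CDC6 and CDT1 and joined by the GINS complex, opens the double strand. The sliding clamp PCNA holds the polymerases, and ribonucleotide reductase, thymidylate synthase and thymidine kinase supply nucleotides. Cyclin B with CDK1 then drives mitosis, in which Aurora and Polo kinases build the spindle, kinetochore proteins check its attachments and the anaphase-promoting complex with CDC20 ends it. In the testis, spermatogonia divide by mitosis, leptotene to diplotene spermatocytes pass meiotic prophase after a last round of replication, and spermatids no longer divide. Meiotic cells use many of the same genes and store transcripts of several of them for the meiotic divisions. Sertoli cells, which nurse the germ cells, stop dividing before puberty, while Leydig cells (steroid makers), macrophages, stromal cells and peritubular myoid cells can still divide.

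Promoters are shown for 2 members whose levels went apart in the results, because the G2 and M phase genes share short upstream elements. RefSeq start sites on GRCm38.p6 were found for 33 of the 40 members. Aurkb, Ccna2, Ccne2, Gins2, Kif20a, Mcm4 and Tpx2 were not matched. Each line gives the 200 bases before the start, 5′ to 3′ on the gene's strand. Capitals mark the CCAAT box (CCAAT, or ATTGG on the other strand) and the cell cycle homology region (CHR, TTTGAA or TTCGAA on either strand). Both windows lie on the minus strand outside any annotated GENCODE exon, Ccnb2 at chr9:70421555-70421754 and Mki67 at chr7:135716380-135716579.
Ccnb2: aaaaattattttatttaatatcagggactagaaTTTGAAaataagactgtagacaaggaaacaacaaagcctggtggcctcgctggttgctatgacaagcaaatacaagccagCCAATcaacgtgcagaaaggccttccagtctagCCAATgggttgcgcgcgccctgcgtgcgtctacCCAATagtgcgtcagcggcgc
Mki67: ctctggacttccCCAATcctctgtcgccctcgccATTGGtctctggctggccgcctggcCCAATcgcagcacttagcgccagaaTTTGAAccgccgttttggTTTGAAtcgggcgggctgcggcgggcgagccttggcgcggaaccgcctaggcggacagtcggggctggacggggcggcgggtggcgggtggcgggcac

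The Ccnb2 window held 1 CHR and 3 CCAAT boxes, and the Mki67 window held 2 CHR and 3 CCAAT boxes. A CCAAT box was present in 17 of 19 G2 and M phase members with a window (89.5%), in 8 of 14 S phase members (57.1%) and in 29.3% of the 32851 windows of all genes. A CHR was present in 8 of 19 (42.1%), 2 of 14 (14.3%) and 13.4%. The letters TTTGGCG or TTCCCGC, which E2F factors bind, were present in 0 of 19, 5 of 14 (35.7%) and 4.20%. The 5 were Cdc6, Mcm5, Mcm6, Mcm7 and Rrm1. Both strands were searched, and a match describes the letters only.

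The 4 libraries held about 106580000 and 119970000 UMIs (unique molecular identifiers, 1 per captured transcript) in TOs and 77016000 and 74988000 in testes, over 14643, 12491, 12179 and 11826 barcodes. After filters, 9803 and 8713 TO cells and 9866 and 9511 testis cells remained, and 19 to 31 barcodes were shared by any pair of libraries among them. Cell types are clusters named from fixed markers and should be read as "Sertoli-like", "Leydig-like" and so on. Cells in the endothelial cluster numbered 4 and 2 in the TOs, and elongating spermatids 0 and 0, so neither could be compared. These TO cells of the endothelial cluster held a median of 0 of its 6 markers, against 4 in the testes, so their name does not hold. Epithelial cells (59 and 80) occurred in TOs and numbered 0 in the testes. Markers held in most types. Among Leydig cells of the TOs, however, Cyp17a1, a steroid-making enzyme, reached 1158 CPM in replicate 1 and 81.9 CPM in replicate 2, against 3761 and 11041 CPM in the testes, and Insl3 reached 2269 and 150 CPM against 3336 and 1731 CPM. Amh was at most 22.0 CPM in Sertoli cells of any library. CPM here is the usual depth-scaled count, taken over all UMIs of the cells of a type in a library, so more dividing cells and more transcripts per dividing cell cannot be told apart in it.

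Germ cells made up 9.46 and 7.93% of kept cells in TOs and 67.7 and 73.3% in testes. Transcripts of 14 spermatid markers were therefore followed in the somatic cells. They summed to 4.89 and 7.24 CPM in the TOs and 2863 and 5124 CPM in the testes among Sertoli cells, to 5.43 and 8.11 CPM in the TOs and 5749 and 7258 CPM in the testes among stromal cells and to 3.14 and 8.30 CPM in the TOs and 4524 and 6805 CPM in the testes among macrophages. Their range over the 5 somatic types compared was 2.18 to 8.86 CPM in the TOs and 2198 to 7258 CPM in the testes, where 0 of the 14 markers were at 0 in any of these types. Of the 40 members, 11 stayed below 5 CPM in diplotene spermatocytes and spermatids of the testes (Mki67, Ccna2, Mcm2, Mcm3, Mcm4, Mcm6, Tyms, Tk1, Ccne2, Cdt1 and E2f1, a cut set after the values were seen). The highest of the other 29 were Ccnb2 at 508 CPM, Cdc20 at 503 CPM, Birc5 at 388 CPM, Aurka at 357 CPM and Cenpf at 231 CPM in the highest late germ cell group. The part of late germ cell RNA in the somatic values was not tested.

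The share of somatic cells with division transcripts was lower in both TO libraries than in both testis libraries in each of the 5 somatic types compared. A cell was counted when at least 3 of the 40 genes had a UMI after every cell was thinned to 1500 UMIs. Among Sertoli cells the share was 1.83 and 1.93% in the TOs and 16.6 and 30.4% in the testes, a mean of 1.88% ± 0.0720 (SD, n = 2) in the TOs and 23.5% ± 9.78 (SD, n = 2) in the testes. For each of the 5 types the exact two-sided permutation test gave p = 0.33, the smallest value that 2 against 2 libraries allow. Stromal cells reached 1.97 and 0.789% in the TOs and 22.97 and 24.5% in the testes. Myoid cells, named for the contractile cells around the tubules, reached 1.03 and 0.676% in the TOs and 21.6 and 18.9% in the testes. Leydig cells reached 2.05 and 4.57% in the TOs and 9.95 and 12.5% in the testes. Macrophages had the highest somatic share in the TOs, 15.4 and 6.65%, with 21.6 and 29.9% in the testes. Endothelial cells of the testes reached 23.3 and 34.1%, and epithelial cells of the TOs 1.75 and 1.25%.

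Sertoli cells were taken as the type that should not divide, though whether those of the TOs had stopped was not tested. Before thinning their median depths were 10020 and 11340 UMIs in TOs and 6430 and 6419 UMIs in testes. Their share, 28 of 1533 and 14 of 726 cells in TOs and 69 of 416 and 59 of 194 in testes, was used as a reference for the other somatic types. These testis cells lay in several clusters, with 316 and 109 in the main one, 81 and 77 in the next and 19 and 8 in the last. Shares by Sertoli cluster are not given. Without Harmony integration 334 and 115 testis cells were named Sertoli, so the reference depends on the naming. Whether the same background held in each type was not tested, and spermatid markers were lower in Sertoli than in stromal cells in both testis libraries. In the testes, the Leydig share was below the Sertoli share in both replicates, while stromal, myoid and endothelial cells and macrophages stood above it in replicate 1. In replicate 2 the first 2 and macrophages were below it, and endothelial cells at 34.1% (exact 95% Clopper-Pearson interval 24.3 to 44.97%) had an interval that holds the Sertoli value. In the TOs, macrophages stood above the Sertoli share in both replicates (11.2 to 20.4% and 4.91 to 8.77%) and Leydig cells in replicate 2 (3.59 to 5.73%). Stromal and myoid shares of the TOs lay within or below the Sertoli intervals, which does not show that these cells do not divide. Many cells lay at the threshold, with 119 Sertoli cells at exactly 2 genes and 49 at exactly 3 in testis replicate 1. Intervals and limits of 0 counts cover counting error only.

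**Figure D1:**
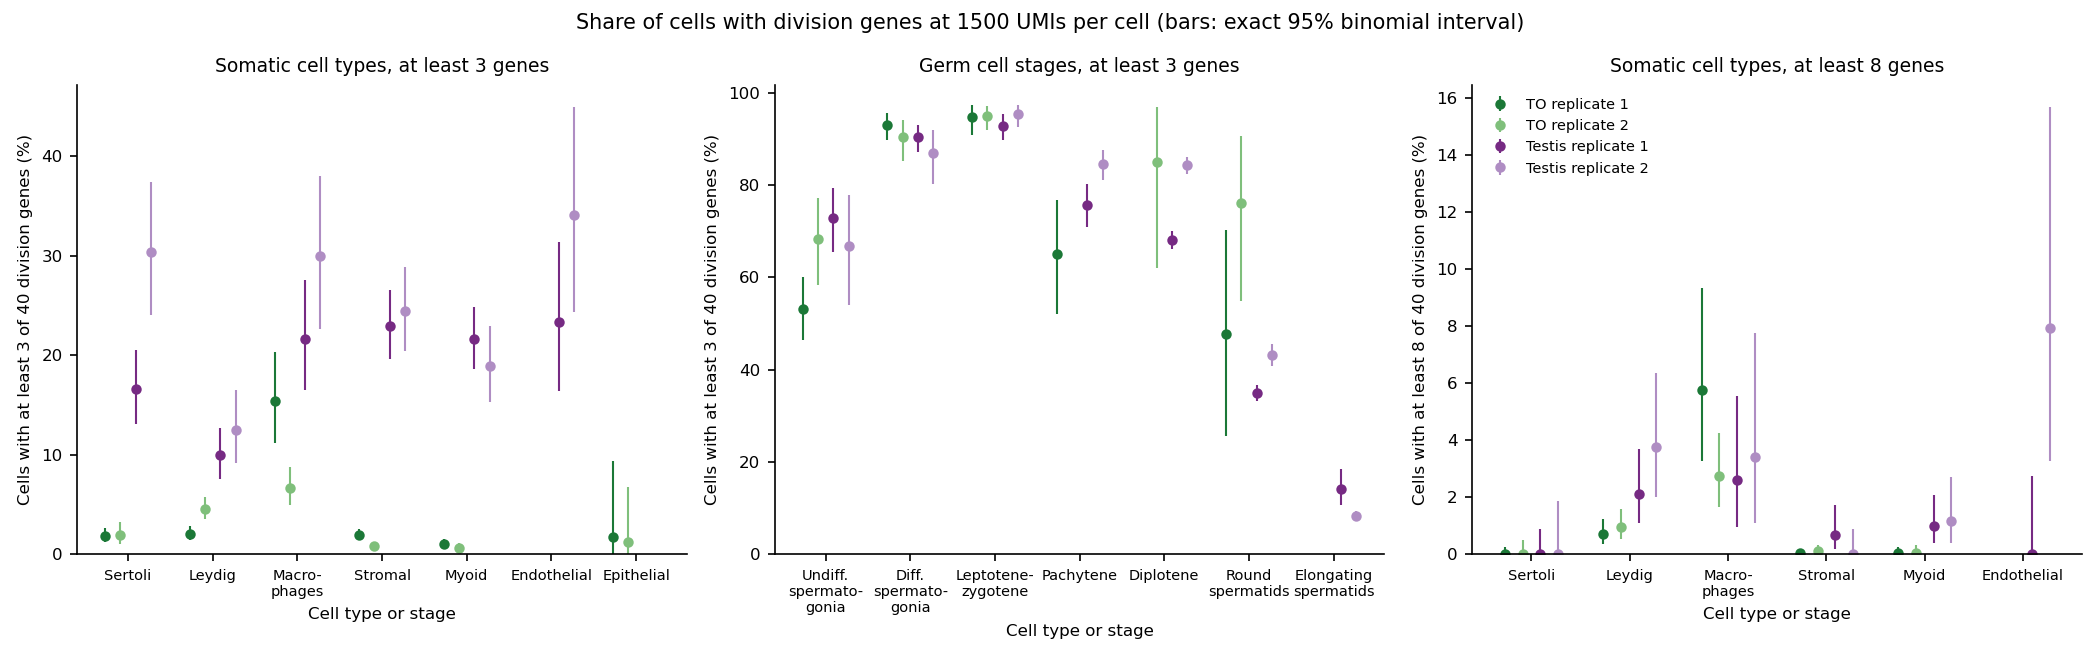
Percent of cells with a UMI of at least 3 of the 40 division genes in somatic types (first panel) and germ cell stages (second panel), and of at least 8 in somatic types (last panel), each cell thinned to 1500 UMIs, with 1 point per library and exact 95% binomial intervals as bars. Sertoli cells went from 1.83 and 1.93% in TOs to 16.6 and 30.4% in testes at 3 genes, and were at 0% in all 4 libraries at 8 genes.

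A stricter count of at least 8 genes, set after the values were seen, left Sertoli cells at 0 in all 4 libraries, which by the limit of 3 counts of the total allows shares of up to 0.196 and 0.413% in the TOs and 0.721 and 1.55% in the testes. The exact Clopper-Pearson upper bounds were 0.240 and 0.507% in the TOs and 0.883 and 1.88% in the testes. Leydig cells with at least 8 genes made up 0.703 and 0.966% in the TOs (12 and 15 cells) and 2.13 and 3.78% in the testes (12 and 13 cells), with no overlap between the groups (exact permutation test, p = 0.33). Macrophages gave 5.77 and 2.75% in the TOs (15 and 19 cells) and 2.60 and 3.40% in the testes (6 and 5 cells), so the groups overlapped (exact permutation test, p = 0.67). Myoid cells gave 0.0429 and 0.0563% in the TOs (1 cell in each) and 1.01 and 1.17% in the testes (7 and 5 cells). Of these 14 myoid cells, 12 fell in the cluster led by Rgs5 and Mustn1, which held 5 and 34 cells of the TOs and 214 and 143 of the testes, and 2 in the main myoid cluster. Stromal cells gave 0.0346 and 0.126% in the TOs and 0.676 and 0% in the testes. Testis endothelial cells gave 0 and 7.95%, all 7 cells in replicate 2.

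The cells above this count mostly carried Mki67, the classical proliferation antigen, which is itself 1 of the 40 genes counted. A Mki67 UMI was present in 77.8% of the 27 Leydig cells of the TOs and 96.0% of the 25 of the testes, against 1.95 and 3.97% of the other Leydig cells. It was present in 97.1% of the 34 macrophages of the TOs and 81.8% of the 11 of the testes, against 11.8 and 3.00% of the other macrophages. A UMI of Ddx4 or Dazl, which mark germ cells, was present in 1 of the 27 and 7 of the 25 Leydig cells (3.70 and 28.0%) and in 2 of the 34 and 7 of the 11 macrophages (5.88 and 63.6%). It was present in 14.5 and 33.7% of the other Leydig cells and 10.3 and 33.8% of the other macrophages, in TOs and testes. Median doublet scores of the counted cells were 0.0549 and 0.0427 for Leydig cells in TOs and testes and 0.0421 and 0.0471 for macrophages, higher than the 0.0223, 0.0215, 0.0149 and 0.0202 of the other cells. Their median depths were also higher, at 12593 against 11659 UMIs in Leydig cells of the TOs and 8870 against 5999 UMIs in macrophages of the TOs. In the testes the depths were 9177 against 6924 UMIs in Leydig cells and 4925 against 3201 UMIs in macrophages. The UMIs of Mki67, Ddx4 and Dazl were read before thinning, at these unequal depths. The part of doublets and depth was not tested.

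Summed over Sertoli cells, mitotic genes were several fold lower in TOs and replication genes differed less. The 23 G2 and M phase genes summed to 155 and 144 CPM in the TOs and 737 and 856 CPM in the testes, and the 17 S phase genes to 198 and 210.2 CPM in the TOs and 225 and 230.3 CPM in the testes. In edgeR's quasi-likelihood test 35 members had enough counts, 19 were lower in TOs and 0 were higher at an adjusted p below 0.01 and a fold above 2, while among all genes tested 19.3% were lower and 8.9% higher. Mki67, Ccna2, Hmmr, Cdc6 and Cdt1 were too low to test. The called members were 17 of 20 G2 and M phase genes and 2 of 15 S phase genes, with a median log2 change of -2.22 over members and 0.02 over all genes. Both TO libraries lay below both testis libraries for 26 of the 40 members and above them for 6. The share of all genes that separated in this way is not given, here or for the cell types below. When genes with at least 5 times the CPM in the other cells of a library were left out, 18 members could be tested and 6 were called, with a median log2 change of -0.08 over members.

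Among cyclins, Ccnb2, a partner of CDK1, was at 3.10 and 2.28 CPM in the TOs and 93.8 and 82.8 CPM in the testes. Both TO libraries lay far below both testis libraries (log2 change -4.89, SE 0.24, adjusted p = 1.03e-05). Cdk1 itself was at 61.3 and 79.4 CPM in the TOs and 100.3 and 161 CPM in the testes, without overlap, and was not called (log2 change -0.75, adjusted p = 0.0425). Cdk1 was the member above its own library's mean in Sertoli cells of all 4 libraries, at 165 and 232% of that mean in TOs and 216 and 213% in testes. Cdc20, the activator of the anaphase-promoting complex, was at 8.74 and 5.63 CPM in the TOs and 63.6 and 108 CPM in the testes (log2 change -3.40, SE 0.31, adjusted p = 1.24e-04). Birc5 (survivin), a member of the chromosomal passenger complex, was at 8.12 and 7.11 CPM in the TOs and 54.2 and 74.6 CPM in the testes (log2 change -2.94, SE 0.24, adjusted p = 6.57e-05). Cenpf, a kinetochore protein, was at 5.09 and 2.15 CPM in the TOs and 34.2 and 31.96 CPM in the testes (log2 change -3.02, SE 0.39, adjusted p = 5.74e-04). In all 3 the testis libraries were high and the groups did not overlap.

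Aurka, the kinase of the spindle poles, was at 3.44 and 3.89 CPM in the TOs and 37.5 and 65.6 CPM in the testes (log2 change -3.67, SE 0.34, adjusted p = 1.19e-04). Its activator Tpx2 was at 24.2 and 17.2 CPM in the TOs and 126 and 95.9 CPM in the testes (log2 change -2.32, SE 0.22, adjusted p = 1.52e-04). Tpx2 stood at 319 and 330% of the library mean in testis Sertoli cells and 101 and 89.3% in TO Sertoli cells, so it was higher there than in the average testis cell, unlike most members. Nusap1, which bundles spindle microtubules, was at 3.79 and 2.15 CPM in the TOs and 26.5 and 30.3 CPM in the testes, and Top2a, which untangles DNA, at 6.47 and 3.62 CPM in the TOs and 29.4 and 22.9 CPM in the testes. Both were lower in both TO libraries (log2 change -3.08 and -2.25, both called). Of the S phase genes, Mcm7, a helicase subunit, was at 18.03 and 16.4 CPM in the TOs and 57.5 and 44.3 CPM in the testes (log2 change -1.47, SE 0.22, adjusted p = 0.00109) and Rrm2, the regulated subunit of ribonucleotide reductase, at 1.58 and 1.74 CPM in the TOs and 8.56 and 8.19 CPM in the testes (log2 change -2.22, SE 0.44, adjusted p = 0.00451). The others gave no call. Pcna overlapped at 46.2 and 58.9 CPM in the TOs and 48.9 and 59.8 CPM in the testes, Rrm1 was at 38.95 and 38.3 CPM in the TOs and 28.9 and 37.7 CPM in the testes, and Ccne1, which starts S phase, at 1.58 and 1.07 CPM in the TOs and 4.48 and 5.74 CPM in the testes.

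In Leydig cells 13 of 40 members were lower in TOs and 0 higher, with 12.3% and 2.16% of all genes tested called in those directions. All 13 were G2 and M phase genes, and 0 of 17 S phase genes passed. The median log2 change was -1.58 over members and -0.03 over all genes, and both TO libraries lay below both testis libraries for 31 members and above them for 1. The G2 and M phase sum was 159.6 and 211 CPM in the TOs and 700.1 and 793 CPM in the testes, and the S phase sum 206 and 244 CPM in the TOs and 286 and 319 CPM in the testes. Leaving out testis replicate 2 left 3 calls and leaving out TO replicate 1 left 7, while 0 passed when genes of any count were fitted and 3 when cells had no upper limits.

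The cyclin Ccnb2 was at 11.6 and 18.3 CPM in the TOs and 90.5 and 74.8 CPM in the testes (log2 change -2.54, SE 0.30, adjusted p = 0.00120). For the anaphase-promoting complex, Cdc20 was at 20.2 and 23.2 CPM in the TOs and 73.1 and 104 CPM in the testes (log2 change -2.11, SE 0.28, adjusted p = 0.00184). Ube2c, its ubiquitin-conjugating enzyme, was at 14.02 and 16.2 CPM in the TOs and 46.1 and 80.03 CPM in the testes (log2 change -2.15, SE 0.34, adjusted p = 0.00346). In each of these the 2 testis libraries were high and the groups did not overlap. Birc5 was at 13.1 and 20.4 CPM in the TOs and 65.2 and 89.1 CPM in the testes and Cenpf at 8.73 and 10.6 CPM in the TOs and 35.99 and 40.02 CPM in the testes, with log2 changes of -2.28 and -2.05. Prc1, which holds the midzone of the late spindle, was at 6.54 and 7.65 CPM in the TOs and 36.8 and 35.3 CPM in the testes, Aurka at 3.93 and 4.76 CPM in the TOs and 37.4 and 24.2 CPM in the testes and Top2a at 9.49 and 13.5 CPM in the TOs and 44.1 and 43.5 CPM in the testes. All 5 were called as lower in TOs. The S phase leaders Mcm7 (27.4 and 37.8 CPM in the TOs and 55.95 and 46.4 CPM in the testes), Tyms, which makes thymidylate (16.9 and 22.1 CPM in the TOs and 23.9 and 29.5 CPM in the testes), and E2f1, a transcription factor of S phase entry (6.54 and 4.44 CPM in the TOs and 10.4 and 10.8 CPM in the testes), were lower in both TO libraries without a call, and Pcna overlapped at 41.6 and 47.9 CPM in the TOs and 37.7 and 61.3 CPM in the testes. Leydig cells of the testes were above their library's mean for 7 and 12 of the 40 members, those of the TOs for 0 and 4.

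Leydig cells fell in more than 1 cluster. A cluster of 51 and 51 cells occurred in the TOs and held 0 testis cells, and at least 3 members were found in 12.2 and 19.6% of its cells. In the main Leydig cluster the shares were 1.75 and 4.06% in the TOs and 9.95 and 12.5% in the testes.

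In macrophages most members gave no call and Mki67 was higher in TOs. Of 37 members tested (Ccne1, Ccne2 and Cdc6 were too low), 3 were lower in TOs and 1 higher, and 16.3% and 3.29% of all genes were called in those directions. The median log2 change was -0.03 over members and 0.06 over all genes, and 23 of the 40 members overlapped. Mki67 was at 84.8 and 60.1 CPM in the TOs and 34.9 and 30.7 CPM in the testes, with both TO libraries above both testis libraries (log2 change 1.33, SE 0.33, adjusted p = 0.00945). Ccnb2 was at 38.7 and 23.8 CPM in the TOs and 161 and 88.9 CPM in the testes (log2 change -1.83, SE 0.36, adjusted p = 0.00242), Cdc20 at 34.5 and 28.3 CPM in the TOs and 76.8 and 96.97 CPM in the testes (log2 change -1.27, SE 0.30, adjusted p = 0.00733) and Aurka at 15.7 and 9.19 CPM in the TOs and 54.5 and 45.3 CPM in the testes (log2 change -1.85, SE 0.39, adjusted p = 0.00382). These 3 were lower in both TO libraries. All 4 calls were lost without testis replicate 1 and when cells with germ cell markers were left out, and Mki67 was also not called without TO replicate 1, without testis replicate 2, with doublets kept, with DESeq2's size factors or by DESeq2.

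The member with the most UMIs was Pcna, at 192 and 132 CPM in the TOs and 110.3 and 178 CPM in the testes, with the groups overlapping. Birc5 was at 94.7 and 52.9 CPM in the TOs and 103 and 108 CPM in the testes, Top2a at 69.1 and 39.5 CPM in the TOs and 80.98 and 71.1 CPM in the testes and Mcm7 at 51.3 and 19.3 CPM in the TOs and 103 and 80.8 CPM in the testes. These 3 were lower in TOs without overlap and were not called. Rrm1, Prc1 and E2f1 overlapped, with E2f1 at 35.6 and 14.1 CPM in the TOs and 23.7 and 30.7 CPM in the testes. The G2 and M phase sum was 839.8 and 541 CPM in the TOs and 998 and 923 CPM in the testes, the highest of the TO somatic types compared, and the S phase sum 668 and 353 CPM in the TOs and 427 and 663 CPM in the testes. Macrophages exceeded their own library's mean for 36 and 25 of 40 members in TOs and for 8 and 18 in testes, where germ cells make up most of the library.

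A cluster led by Cd74 and H2-Aa, genes of antigen presentation, held 47 and 43 macrophages of the testes and 1 and 2 of the TOs, and 42.6 and 53.5% of its testis cells had at least 3 members. In the main macrophage cluster the shares were 15.4 and 6.67% in the TOs and 16.3 and 20.2% in the testes, so there too both TO libraries were below both testis libraries.

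Stromal cells, the connective tissue cells of the interstitium, gave 13 members lower in TOs and 0 higher of 40 tested, beside 15.3% and 1.83% of all genes. The called genes were 12 of 23 G2 and M phase genes and 1 of 17 S phase genes, with median log2 changes of -1.74 over members and 0.07 over all genes. The G2 and M phase sum was 158 and 76.6 CPM in the TOs and 962 and 870.2 CPM in the testes, and the S phase sum 206 and 158 CPM in the TOs and 263 and 254 CPM in the testes. Ccnb2 was at 9.17 and 5.56 CPM in the TOs and 172 and 117 CPM in the testes (log2 change -4.23, SE 0.35, adjusted p = 5.50e-04) and Ccnb1 at 3.82 and 1.82 CPM in the TOs and 55.7 and 36.1 CPM in the testes (log2 change -3.98, SE 0.46, adjusted p = 0.00149). The Polo kinase Plk1 was at 2.46 and 1.32 CPM in the TOs and 48.4 and 47.9 CPM in the testes (log2 change -4.61, SE 0.37, adjusted p = 5.00e-04). For both cyclins and the kinase both TO libraries lay below both testis libraries.

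In the same cells Cdc20 was at 13.9 and 6.88 CPM in the TOs and 108 and 137 CPM in the testes, Aurka at 5.26 and 2.64 CPM in the TOs and 64.3 and 73.8 CPM in the testes and Birc5 at 14.3 and 6.56 CPM in the TOs and 109 and 94.2 CPM in the testes. Cenpf was at 9.84 and 3.87 CPM in the TOs and 66.5 and 66.7 CPM in the testes, Nusap1 at 7.81 and 4.51 CPM in the TOs and 40.5 and 42.4 CPM in the testes and the helicase subunit Mcm7 at 20.3 and 19.7 CPM in the TOs and 78.1 and 54.9 CPM in the testes. All 6 were called as lower in TOs, with log2 changes from -4.06 (Aurka) to -1.64 (Mcm7). Pcna (72.4 and 46.1 CPM in the TOs and 47.7 and 62.8 CPM in the testes) and E2f1 (4.75 and 4.10 CPM in the TOs and 7.95 and 2.35 CPM in the testes) overlapped, and Rrm1 and Top2a were lower in both TO libraries without a call. Mki67 was at 2.38 and 1.23 CPM in the TOs and 10.1 and 3.14 CPM in the testes, also without a call. Without testis replicate 1 there were 7 calls, and 8 of 26 tested when genes with 5 times the CPM in other cells were left out (median log2 change -0.94 over members).

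Myoid cells here pool the main myoid cluster and the cluster led by Rgs5 and Mustn1. The latter held 5 of 2342 and 34 of 1777 TO cells, but 214 of 693 and 143 of 429 testis cells. Whether its cells lie around the tubules was not tested. The pooled myoid cells had the most calls, 22 of 40 lower in TOs and 0 higher, beside 20.1% and 4.29% of all genes. They were 20 of 23 G2 and M phase genes and 2 of 17 S phase genes (Mcm7 and Rrm2), and the median log2 change was -2.58 over members and 0.05 over all genes. The G2 and M phase sum was 126 and 64.5 CPM in the TOs and 1056 and 826 CPM in the testes, and the S phase sum 179.9 and 148 CPM in the TOs and 234 and 260.1 CPM in the testes. Ccnb2 was at 7.62 and 3.03 CPM in the TOs and 182 and 98.98 CPM in the testes (log2 change -4.74, SE 0.47, adjusted p = 1.04e-04), Ccnb1 at 2.80 and 1.84 CPM in the TOs and 54.9 and 41.6 CPM in the testes (log2 change -4.38, SE 0.35, adjusted p = 3.79e-05) and Cdk1 at 25.3 and 18.2 CPM in the TOs and 44.8 and 58.7 CPM in the testes (log2 change -1.24, SE 0.26, adjusted p = 0.00583). The 3 drivers of mitotic entry were thus lower in both TO libraries, Cdk1 by the smallest step.

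Cdc20 was at 11.6 and 5.51 CPM in the TOs and 105 and 123 CPM in the testes, Birc5 at 8.32 and 4.39 CPM in the TOs and 102 and 84.6 CPM in the testes and Aurka at 3.85 and 3.59 CPM in the TOs and 76.8 and 71.7 CPM in the testes. Cenpf was at 9.02 and 3.43 CPM in the TOs and 82.1 and 53.9 CPM in the testes, Prc1 at 6.39 and 1.76 CPM in the TOs and 56.5 and 36.9 CPM in the testes, Top2a at 9.46 and 3.35 CPM in the TOs and 45.9 and 33.4 CPM in the testes and Mcm7 at 18.04 and 15.5 CPM in the TOs and 67.7 and 54.6 CPM in the testes. All 7 were called, with log2 changes from -4.30 (Aurka) to -1.87 (Mcm7), and none overlapped. Pcna (62.5 and 48.4 CPM in the TOs and 34.1 and 65.5 CPM in the testes) and E2f1 overlapped. Rrm1, the large subunit of ribonucleotide reductase, was at 21.5 and 18.4 CPM in the TOs and 36.3 and 40.3 CPM in the testes and was not called. Without testis replicate 1 there were 11 calls, and 8 of 22 tested when genes with 5 times the CPM in other cells were left out (median log2 change -0.89 over members). In the main myoid cluster 1.03 and 0.574% of TO cells and 17.95 and 17.8% of testis cells had at least 3 members.

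The makeup of the division transcripts differed between groups as well as their amount. Ccnb2, Cdc20, Birc5, Aurka and Cenpf, the 5 members highest in late germ cells, gave 50.6 and 49.3% of member UMIs in testis diplotene spermatocytes and 50.1 and 48.7% in testis round spermatids. These 5 genes were picked by their levels in late germ cells, so their high shares there follow from that choice. In myoid cells they gave 13.2 and 9.37% in the TOs and 42.5 and 39.8% in the testes, and in stromal cells 14.4 and 10.9% in the TOs and 42.4 and 43.5% in the testes. Sertoli cells gave 8.08 and 5.94% in the TOs and 29.4 and 33.4% in the testes. In differentiating spermatogonia, which divide by mitosis, the 5 genes gave 23.3 and 19.6% in the TOs and 21.7 and 22.1% in the testes, so the groups overlapped there.

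The 11 members that were low in late germ cells gave a larger part of member UMIs in the TOs. Both sets of genes are parts of the same total, so their shares are not independent. Apart from Mki67 and Ccna2 the 11 are S phase genes, while Ccnb2, Cdc20, Birc5, Aurka and Cenpf are all G2 and M phase genes. The contrast therefore overlaps with that between the phases given above. Of member UMIs in Sertoli cells the 11 genes gave 22.8 and 22.2% in the TOs and 6.48 and 5.66% in the testes, and in Leydig cells 27.1 and 27.7% in the TOs and 16.1 and 15.2% in the testes. In macrophages they gave 26.5 and 24.1% in the TOs and 12.7 and 19.2% in the testes. The values were 21.1 and 25.9% in the TOs and 7.14 and 6.42% in the testes for stromal cells and 21.4 and 26.2% in the TOs and 6.12 and 6.98% in the testes for myoid cells. In testis diplotene spermatocytes, where they were picked as low, they gave 0.44 and 0.41%. Both TO libraries were thus higher in each somatic type. For each Mki67 UMI, Sertoli cells held 2.37 and 3.40 Ccnb2 UMIs in TOs and 57.5 and 33.7 in testes, on 5 to 19 and 3 to 4 Mki67 UMIs, and macrophages held 0.457 and 0.396 in TOs and 4.60 and 2.89 in testes.

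When cells were counted by at least 2 of these 11 genes alone, a count set after the values were seen, macrophages reached 11.2 and 3.76% in TOs and 4.33 and 5.44% in testes, so the groups overlapped. Leydig cells reached 1.29 and 1.87% in TOs and 3.55 and 2.33% in testes, without overlap. Sertoli cells reached 0.848 and 0.551% in TOs and 0.240 and 0% in testes, the reverse of the order with all 40 genes. Most of the 11 are S phase genes, and counting S phase members only also turned the sign of the mean Sertoli difference. Stromal cells reached 0.449 and 0.474% against 1.18 and 0.719%, myoid cells 0.214 and 0.676% against 1.15 and 1.40%, and testis endothelial cells 3.01 and 12.5%.

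**Figure D2:**
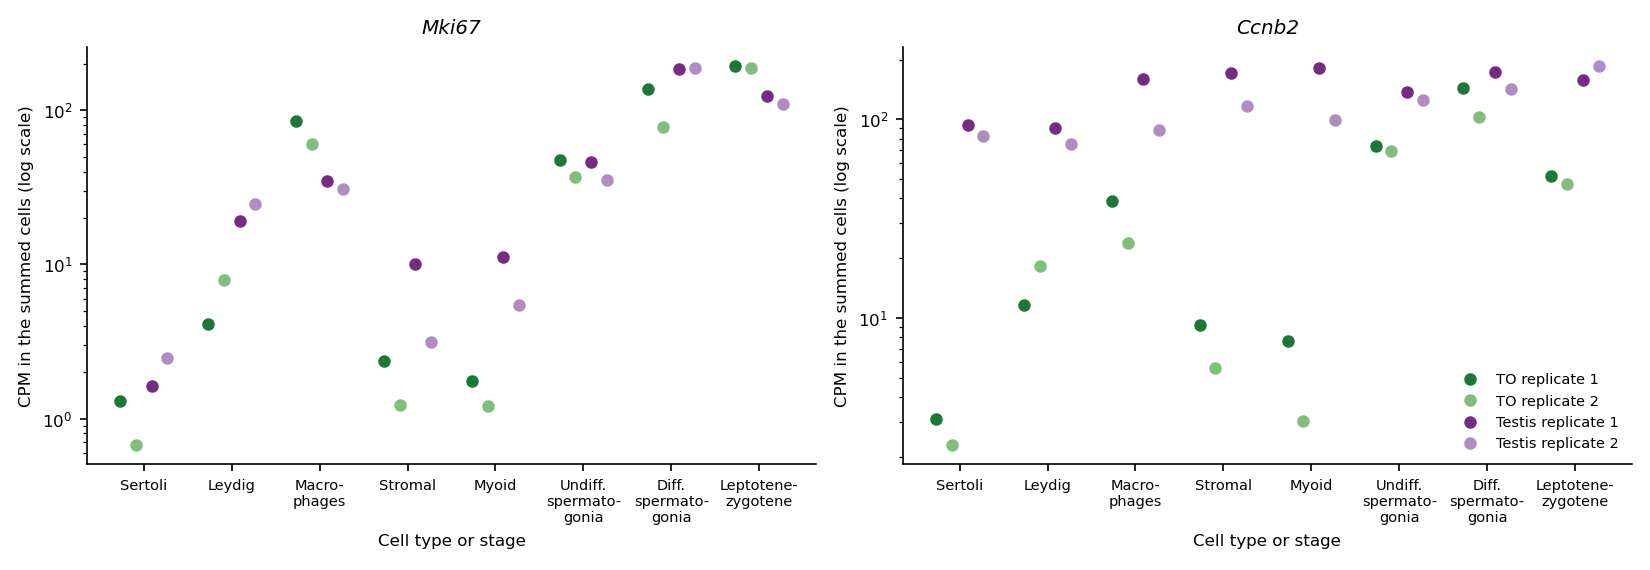
Summed level (CPM, log axis) of Mki67 and Ccnb2 by cell type, with 1 point per library. In macrophages Mki67 was at 84.8 and 60.1 CPM in TOs and 34.9 and 30.7 CPM in testes, while Ccnb2 was at 38.7 and 23.8 CPM against 161 and 88.9 CPM.

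In each library, germ cells from spermatogonia to diplotene spermatocytes held a higher summed level of the 40 members than any named somatic type, while elongating spermatids of the testes, at 686 and 532 CPM, lay below those types. Among undifferentiated spermatogonia the share with at least 3 members was 53.2 and 68.3% in the TOs and 72.8 and 66.7% in the testes. Among differentiating spermatogonia it reached 93.04 and 90.3% in the TOs and 90.3 and 86.8% in the testes, and among leptotene to zygotene spermatocytes 94.6 and 95% in the TOs and 92.9 and 95.3% in the testes. Over both kinds of spermatogonia the share was 79.8% ± 4.28 (SD, n = 2) in the TOs and 82.8% ± 3.31 (SD, n = 2) in the testes, and the groups overlapped (exact permutation test, p = 0.67). That comparison depended on the count used. The difference, TO minus testis, was -14.6 percentage points by G2 and M phase members only, -8.32 with at least 5 genes and 5.20 by S phase members only (exact permutation test, p = 0.33 each). Pachytene spermatocytes reached 65.1 and 94.7% in the TOs and 75.7 and 84.5% in the testes and diplotene spermatocytes 92.9 and 85% in the TOs and 68.1 and 84.3% in the testes, with 77 and 21 and 16 and 20 cells in the TOs. Round spermatids, which have ended both meiotic divisions, reached 47.6 and 76% in the TOs and 34.95 and 43.2% in the testes, from 25 and 26 cells in the TOs.

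In undifferentiated spermatogonia the G2 and M phase genes summed to 1718 and 1826 CPM in the TOs and 2180.2 and 2217 CPM in the testes, and the S phase genes to 1166 and 1293 CPM in the TOs and 1000.4 and 1041 CPM in the testes. In differentiating spermatogonia the sums were 3816 and 2760.1 CPM in the TOs and 3870.5 and 4364 CPM in the testes and 1688 and 1847 CPM in the TOs and 1658 and 1676 CPM in the testes. In leptotene to zygotene spermatocytes they were 3888 and 4204 CPM in the TOs and 3241 and 3672 CPM in the testes and 1704 and 1674 CPM in the TOs and 1364 and 1086 CPM in the testes. The S phase sums of TOs were above those of testes in each of the 3 stages. Over the testis stages, the differentiating spermatogonia had the highest mean of 10 of 23 G2 and M phase genes and 12 of 17 S phase genes. In TOs they had the highest mean of 6 and 7, and leptotene to zygotene spermatocytes that of 9 and 8. Differentiating spermatogonia exceeded the library mean for 40, 40, 38 and 38 of the 40 members.

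**Figure D3:**
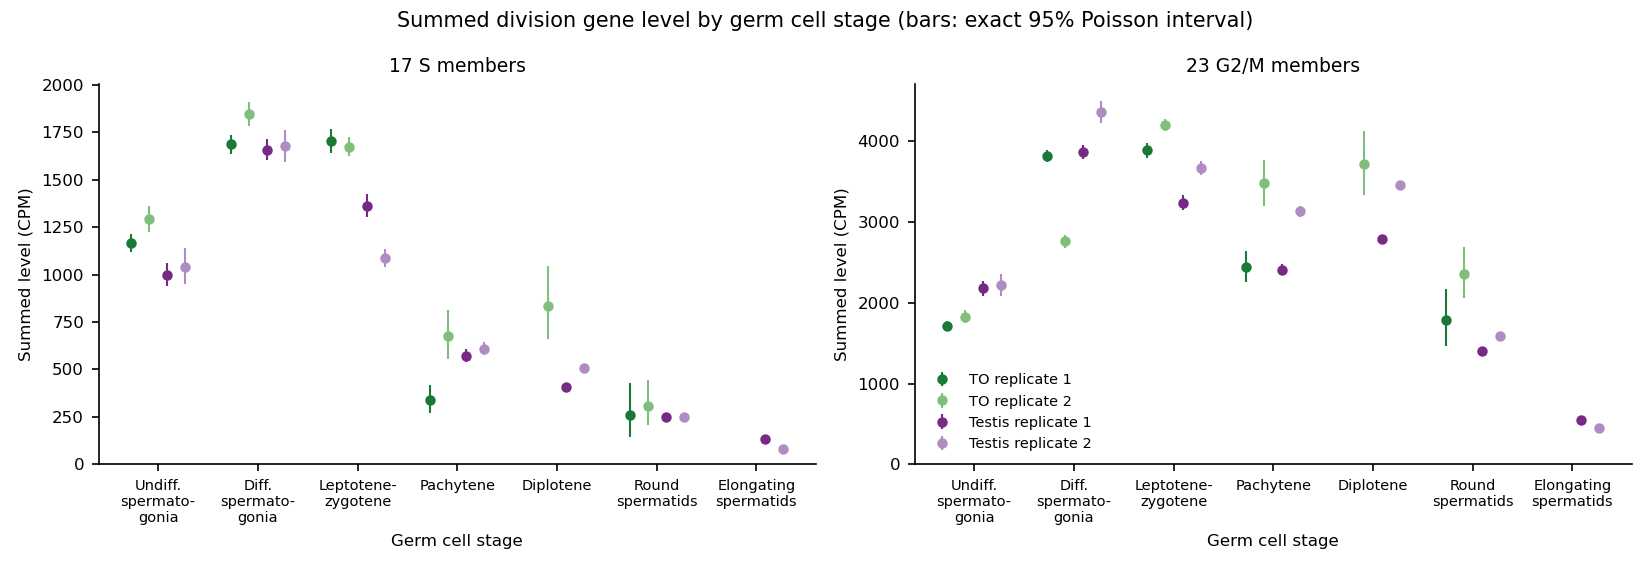
Summed CPM of the 17 S phase and 23 G2 and M phase members by germ cell stage, with 1 point per library. The S phase sum of leptotene to zygotene spermatocytes was 1704 and 1674 CPM in TOs and 1364 and 1086 CPM in testes.

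Over all spermatogonia 1 of 40 members was called, lower in TOs, beside 12% of all genes lower and 0.876% higher. This was Aurka, at 43.5 and 37.3 CPM in the TOs and 90.6 and 66.4 CPM in the testes (log2 change -1.01, SE 0.21, adjusted p = 0.00423). The call did not hold without TO replicate 2, in the fit of genes of any count or with no upper limits on cells. The 14 spermatid markers summed to 17.6 and 26.2 CPM in the TOs and 2866 and 4154 CPM in the testes in the same cells. The median log2 change was -0.27 over members and 0.02 over all genes. Cenpf, the member with the most UMIs, was at 465 and 337 CPM in the TOs and 378 and 467 CPM in the testes, and the groups overlapped. Top2a was at 244 and 196 CPM in the TOs and 372 and 309 CPM in the testes, Cdc20 at 210.2 and 198 CPM in the TOs and 245 and 285 CPM in the testes and Prc1 at 128 and 111 CPM in the TOs and 179.8 and 206 CPM in the testes. Mki67 was at 98.8 and 62.8 CPM in the TOs and 139 and 138 CPM in the testes. These 4 were lower in both TO libraries, with log2 changes of -0.67, -0.40, -0.72 and -0.81 and no call. Mcm7 and Rrm1 were also lower in both TO libraries, while Pcna (148 and 181 CPM in the TOs and 114 and 178 CPM in the testes), the cyclin Ccna2, the passenger kinase Aurkb and Ccne2 overlapped.

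By stage, undifferentiated spermatogonia gave 1 call of 39 members tested, Birc5 at 68.7 and 81.6 CPM in the TOs and 136 and 148 CPM in the testes (log2 change -1.01, SE 0.22, adjusted p = 0.00345), beside 8.93% of all genes lower and 0.466% higher in TOs. No member was called there by DESeq2 (5 at an unadjusted p below 0.05), in the fit of genes of any count, with no upper limits on cells, without TO replicate 1 or without testis replicate 1. Differentiating spermatogonia gave 0 calls of 40 in edgeR's quasi-likelihood test and in DESeq2. In edgeR 12.4% of all genes were called lower and 1.15% higher, and 11 members had an unadjusted p below 0.05. Pachytene spermatocytes gave 0 of 31 by both tools. In edgeR 3.78% of all genes were called lower and 1.9% higher, and 6 members had an unadjusted p below 0.05. No share of all genes is given at the unadjusted threshold in these stages. At least 2 of the 11 genes low in late germ cells were found in 50.9 and 46.9% of differentiating spermatogonia of the TOs and 45.8 and 40.3% of those of the testes.

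Leptotene to zygotene spermatocytes gave 3 calls of 40, all lower in TOs, beside 15.1% of all genes lower and 1.73% higher. Ccnb2 was at 51.6 and 47.2 CPM in the TOs and 158 and 186 CPM in the testes (log2 change -1.81, SE 0.25, adjusted p = 9.64e-05), Cdc20 at 121 and 97.04 CPM in the TOs and 164 and 361 CPM in the testes (log2 change -1.29, SE 0.32, adjusted p = 0.00760) and Aurka at 33.4 and 17.2 CPM in the TOs and 62.4 and 102 CPM in the testes (log2 change -1.76, SE 0.36, adjusted p = 0.00218). In the same cells the 14 spermatid markers summed to 15.2 and 27.1 CPM in the TOs and 3973 and 4896 CPM in the testes. Of the 40 members, 22 were higher in both TO libraries than in both testis libraries and 7 were lower. No share of all genes is given to set these counts against. The median log2 change was 0.38 over members and -0.02 over all genes. Mki67 was at 194 and 187 CPM in the TOs and 124 and 110.4 CPM in the testes, without a call. Without testis replicate 1, 15 members were called, 9 of them higher in TOs, and 1 was called without TO replicate 2, without Harmony integration and with no upper limits on cells. The stage spanned 2 clusters, and 1 of them held 86.3 and 85.7% of its cells in the TOs and 75.7 and 49.7% in the testes. Within that cluster the S phase sum was 1813 and 1782 CPM in TOs and 1586 and 1661 CPM in testes, and the G2 and M phase sum 3829 and 4126 CPM against 3218 and 3992 CPM. The other cluster held 31 and 43 TO cells and 85 and 182 testis cells. Its S phase sum was 838 and 1044 CPM in TOs and 622 and 652 CPM in testes. Its G2 and M phase sum was 4356 and 4661 CPM against 3318 and 3430 CPM.

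Other genes of the cell cycle were followed through 4 further lists. Of 40 other mitosis genes, those called as lower in TOs were 16 of 38 tested in Sertoli cells, 8 of 40 in Leydig cells, 1 of 35 in macrophages, 13 of 38 in stromal cells and 19 of 39 in myoid cells, and 0 were higher in these types. Among all genes tested, 19.3, 12.3, 16.3, 15.3 and 20.1% were lower in the same order. In spermatogonia 0 of 40 were called in either direction. Cdca3, which helps degrade a mitotic brake, was among them in each somatic type, with log2 changes of -4.22 (Sertoli), -2.52 (Leydig), -1.50 (macrophage), -4.35 (stromal) and -4.80 (myoid). Of 40 other replication genes, 5 of 35, 1 of 40, 1 of 33, 2 of 38 and 7 of 37 were lower in TOs in the same order, beside those same shares of all genes. In Sertoli cells 1 was higher, Orc6 of the origin recognition complex, at 90.02 and 142 CPM in the TOs and 46.9 and 40.2 CPM in the testes (log2 change 1.52, SE 0.28, adjusted p = 0.00305). In leptotene to zygotene spermatocytes the centromere histone Cenpa was at 137 and 101 CPM in the TOs and 17.8 and 21.97 CPM in the testes (log2 change 2.54, SE 0.30, adjusted p = 2.81e-05), and the checkpoint kinase Chek1 and the methyltransferase Dnmt1 were also higher in TOs (log2 change 1.29 and 1.17).

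Among 12 brakes of the cell cycle, Btg2, an antiproliferative gene of the early stress response, was higher in TOs. It was at 1752 and 935 CPM in the TOs and 158 and 94.9 CPM in the testes in stromal cells (log2 change 3.48, SE 0.45, adjusted p = 0.00232). In myoid cells it was at 1661 and 1221 CPM in the TOs and 376 and 439.6 CPM in the testes, in Sertoli cells at 182 and 123 CPM in the TOs and 28.5 and 21.3 CPM in the testes and in differentiating spermatogonia at 102 and 68.2 CPM in the TOs and 28.6 and 49.1 CPM in the testes, called in each. The CDK inhibitor Cdkn2d was lower in TO Sertoli cells, at 74.1 and 66.4 CPM in the TOs and 156 and 194 CPM in the testes (log2 change -1.19, SE 0.17, adjusted p = 9.09e-04), and its relative Cdkn2c was lower in TO spermatogonia, at 15.5 and 19.2 CPM in the TOs and 34.3 and 51.8 CPM in the testes (log2 change -1.32, SE 0.28, adjusted p = 0.00534). The other Cdkn genes gave no call in the somatic types and spermatogonia, apart from Cdkn2c in Sertoli cells (log2 change -1.57).

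Among 8 drivers of G1, Cdk6, which opens the way into the cell cycle, was lower in spermatogonia of the TOs, at 21.9 and 23.4 CPM in the TOs and 64.4 and 77.4 CPM in the testes (log2 change -1.67, SE 0.21, adjusted p = 1.31e-04). The log2 change was -2.58 in undifferentiated and -1.29 in differentiating spermatogonia, both called, and Ccnd3, a partner of CDK6, changed by -1.48 in the latter. Ccnd1 was lower in myoid cells of the TOs, at 3.94 and 2.95 CPM in the TOs and 35.2 and 91.5 CPM in the testes (log2 change -4.16, SE 0.45, adjusted p = 1.73e-04). Myc went the other way in Leydig cells, at 69.4 and 75.4 CPM in the TOs and 7.31 and 6.13 CPM in the testes (log2 change 3.35, SE 0.26, adjusted p = 3.93e-04), while 13 division genes there were lower. A call higher in TOs was not particular to Leydig cells. Sertoli, stromal and myoid cells each had 1 driver called higher, of 8, 7 and 8 tested, beside 8.9, 1.83 and 4.29% of all genes. Lower in TOs were 0, 0 and 2, beside 19.3, 15.3 and 20.1%.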

How the data were processed

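For the 2 TO and 2 testis libraries the authors used Cell Ranger 7.1.0 and the mm10 build, per the labels, and deposited raw counts of UMIs by gene and barcode, before doublet removal or normalization. Scrublet (scanpy 1.11.5) took the place of the study's DoubletFinder, and the barcodes with the top scores were removed (0.8% per 1000 barcodes). Kept cells had 1000 to 5000 genes, no more than 20000 UMIs and no more than 10% from mitochondrial genes. They were joined with a rewritten Harmony and clustered with leidenalg 0.10.2. The 40 genes, the genes of the further cell cycle lists and genes matching a histone name pattern were left out of the clustering. Clusters were named from markers, and these rebuilt names may differ from those of the study. For shares, cells were thinned to 1500 UMIs, which left out 110 and 22 TO cells and 0 testis cells. UMIs summed per library and type were tested with edgeR 4.0.16 (quasi-likelihood test, TMM, filterByExpr, Benjamini-Hochberg over all genes tested) in R 4.3.3. An SE is the log2 change divided by the root of its F statistic. A gene was called at an adjusted p below 0.01 and a fold above 2. The fit was tested on simulated counts. Per-library values are given for called members (up to the 8 with the largest mean) and the highest member of each role, with Mki67 added after its values were seen, and for up to 3 called genes of each other list by fold with at least 50 CPM, and any Cdkn gene. Members, lists and markers were chosen with earlier results of these data known. Alternatives were DESeq2 1.42.0, other filters, thresholds, clusterings and counts, and each library left out.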

Additional observations from a re-analysis of the deposited data

Results flagged for a closer look

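In 11 of the 40 members both TO libraries lay on 1 side of both testis libraries in 1 of 6 cell types (Sertoli, Leydig, macrophage, stromal, myoid and all spermatogonia) and on the other side in another, and the difference between types was not tested. The share of all genes that meet this rule is not given, so the count cannot be set against it. Single germ cell stages were not looked at in this way. The log2 change (TO minus testis) of Mki67 was 1.33 in macrophages, -1.95 in Leydig cells, -1.84 in stromal cells, -2.51 in myoid cells and -0.81 in spermatogonia. That of Ube2c was 0.90 in macrophages, -2.76 in Sertoli cells, -2.15 in Leydig cells, -2.39 in stromal cells and -3.15 in myoid cells. That of Hmmr, a spindle protein, was 0.59 in macrophages, -1.88 in Leydig cells, -1.51 in stromal cells and -2.85 in myoid cells. Of these changes, those of Mki67 in macrophages, of Ube2c in Sertoli, Leydig, stromal and myoid cells and of Hmmr in myoid cells were called in their own cell type by edgeR's quasi-likelihood test, and the others were not.

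The other 8 members, all of the S phase, had no call in any of these types. Ccne1 was at 0.67 in Leydig cells, -1.75 in Sertoli cells, -1.42 in stromal cells, -0.80 in myoid cells and -0.42 in spermatogonia. Cdt1 was at 1.53 in macrophages and -0.85 in myoid cells, and E2f1 at 0.37 in spermatogonia and -1.03 in Leydig cells. For the helicase subunits, Mcm2 was at 1.22 in Sertoli cells, 0.33 in spermatogonia, -0.56 in Leydig cells and -0.78 in stromal cells. Mcm3 was at 0.10 in spermatogonia and -0.66 in myoid cells, and Mcm6 at 1.15 in Sertoli cells, -0.22 in stromal cells and -0.51 in myoid cells. Rrm1 was at 0.36 in Sertoli cells, -0.76 in Leydig cells, -0.55 in stromal cells, -0.93 in myoid cells and -0.37 in spermatogonia. Tyms was at 1.27 in Sertoli cells, 1.03 in stromal cells, 0.57 in spermatogonia and -0.54 in Leydig cells. These are log2 changes in the types where the libraries of the groups did not overlap.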

How the results depend on the processing

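Shares are differences in percentage points, TO minus testis. The shares of Leydig and myoid cells kept their direction under every alternative run. With S phase members only, the difference was 0.445 for Sertoli cells and 5.20 for spermatogonia, and without thinning it was 0.231 for spermatogonia. Under counts chosen after seeing the data, it was 0.579 (Sertoli), 2.57 (macrophages) and 6.12 (spermatogonia) with at least 2 of the 11 members low in late germ cells, 0.033, 1.22 and 0.677 with at least 3 of them and 0.015 for stromal cells, and 0 (Sertoli) and 1.26 (macrophages) with at least 8 genes. With each library left out in turn it ran from -28.5 to -14.7 for Sertoli cells, -9.19 to -6.64 for Leydig cells, -19.1 to -10.4 for macrophages, -23.1 to -21.6 for stromal cells, -20.8 to -18.0 for myoid cells and -6.04 to 0.013 for spermatogonia. Counts of called members were 19, 13, 4, 13, 22 and 1 in the same order. They became 6, 8 and 8 in Sertoli, stromal and myoid cells when genes with 5 times the CPM in other cells were left out, 21 in Leydig cells and 2 in macrophages by DESeq2, and 0, 20 and 0 in Leydig cells, stromal cells and spermatogonia with genes of any count. At an adjusted p below 0.05 with no fold threshold they were 22, 21 and 7 in Leydig cells, stromal cells and spermatogonia, and with no upper limits on cells 3 in Leydig cells and 0 in spermatogonia. Leaving out cells with germ cell markers gave 0 in macrophages and no value in spermatogonia, where no testis cell was left. Keeping doublets gave 2 in spermatogonia, and so did keeping the division genes in the clustering. With each library left out the counts ran from 17 to 18 (Sertoli), 3 to 12 (Leydig), 0 to 5 (macrophages), 7 to 17 (stromal), 11 to 21 (myoid) and 0 to 4 (spermatogonia). The share of all genes called is given above for the main fits only, not for any alternative. Replicate numbers only name the libraries (correlation of same-numbered libraries' deviations 0.0208 to 0.168 over genes, 2 pairs), and a replicate block gave 7 calls in macrophages, 21 in stromal cells, 0 in all spermatogonia and 8 against 3, 2 of them higher in TOs, in leptotene to zygotene spermatocytes. Causes were not tested, except that fewer libraries or genes enter some fits.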
